A study of Homo sapiens with 10 samples.

Results

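The genes described here encode IGF-binding proteins (IGFBP2 to IGFBP6), the receptors IGF1R and IGF2R, and the RNA-binding proteins IGF2BP1, IGF2BP2 and IGF2BP3. They were chosen by name, as 10 of the 31017 genes in the count table, and all 10 had their start in a promoter bait. Human H9 embryonic stem cells (ESCs), an established cell line, were compared with neuroectodermal cells (NECs) derived from them and harvested at day 7, with no transgene or added genetic change named for either. RNA-seq and promoter capture Hi-C (PCHi-C) each had 2 biological replicates of each cell type, and conventional Hi-C was not analysed here. ESCs are thus both the undifferentiated control and the source of the NECs, and both come from a single line.

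Insulin-like growth factors (IGFs) are secreted ligands that act through the tyrosine kinase receptor IGF1R, while IGF2R takes up IGF2 and delivers it to lysosomes. IGFBPs bind the ligands outside the cell, prolong their life or keep them from the receptor, and are cut by proteases such as PAPPA. The IGF2BPs are a separate family despite the similar name. They bind RNAs, IGF2 and MYC transcripts among them, and regulate their stability, localisation and translation, and they are abundant in embryonic and fetal cells.

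Library totals ranged from 19234087 to 25356382 counts on genes. Both ESC libraries came from one sequencing lane and both NEC libraries from another by their labels, so lane and cell type cannot be told apart. Expression is given as counts per 1e6 counts (CPM, scaled by edgeR's TMM method, mean ± SD, n = 2). Changes are given as the log2 ratio of NECs to ESCs from edgeR's quasi-likelihood test. A gene was called if this ratio was beyond 1.5 in either direction with p under 0.05 after Benjamini-Hochberg adjustment over all tested genes. Of 10 pluripotency markers 8 were called lower in NECs and none higher (median log2 ratio −4.12), with POU5F1 at 1482 and 1438 CPM in the ESC libraries and 31.0 and 111 in the NEC libraries. Their summed CPM was 6922 and 7401 in ESCs against 1453 and 2080 in NECs, where LIN28A and SOX2, the members not called, made up most of it. Of 10 neuroectoderm markers 9 were called higher (median 5.51), with sums of 491 and 577 against 1781 and 1900. Of 10 neural crest markers 7 were called higher and 1, ETS1, lower (median 3.97), with sums of 153 and 140, mostly ETS1, against 293 and 156. Of 10 mesenchyme markers 5 were called higher and 1 lower (sums 544 and 600 against 830 and 745). Of 10 endoderm and mesendoderm markers 7 were called lower and 2, AFP and TTR, higher (median −2.20), and these 2 carried most of the NEC sums (48.1 and 117 against 63.4 and 131). None of the markers was at 0 in all 4 libraries. In these bulk samples, fewer cells of a type and less RNA per cell cannot be told apart.

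IGFBP5 and IGFBP3 rose in NECs and were the 2 members called, and no member was called lower. The share of tested genes called was 21.0% in either direction, 11.4% higher and 9.68% lower. Without the fold threshold, 4 members were higher at an adjusted p under 0.05 (IGFBP3, IGFBP5, IGF2BP2 and IGF2BP3), 3 were lower (IGFBP4, IGFBP6 and IGF1R) and 3 did not pass (IGFBP2, IGF2R and IGF2BP1). At that looser threshold 61.1% of all tested genes passed, 31.5% higher and 29.7% lower. The CPM of the cell types did not overlap for 9 of the 10 members, all but IGF2BP1, and for 83.8% of tested genes. The median log2 ratio was 0.30 over the 10 genes and 0.01 over the 17564 tested genes.

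**Figure D1:**
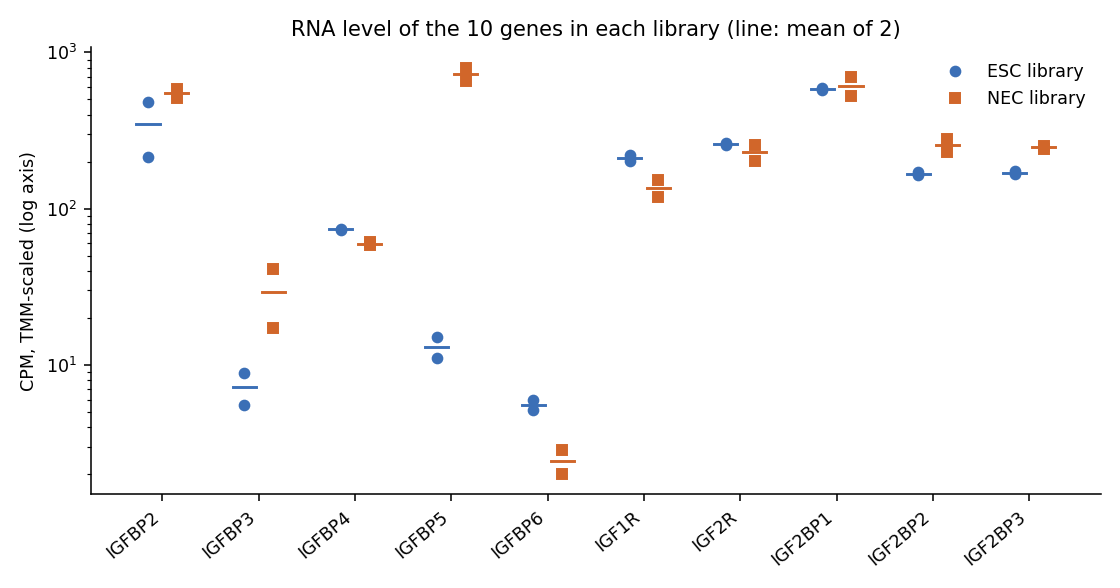
CPM of each gene in each library on a log axis, with circles for ESC libraries, squares for NEC libraries and a line at the mean of 2. IGFBP5 has the widest gap between the cell types, from 13.0 to 725 CPM, and the NEC libraries of IGFBP3 lie far from each other.

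IGFBP5, a binding protein that also attaches to extracellular matrix, had 208 and 372 counts in the ESC libraries and 13928 and 19687 in the NEC libraries. The groups were far apart, with 13.0 ± 2.85 CPM in ESCs and 725 ± 103 in NECs, a 55.3-fold rise. Its log2 ratio was 5.79 with SE 0.20 (adjusted p = 1.4e-05, edgeR). The gene (ENSG00000115461, GRCh37 chr2:217536828-217560248, minus strand) overlaps AC007563.5 on the opposite strand, which had 11, 24, 497 and 734 counts in the same order of libraries. Counting ignored strand, so in the stretch they share the reads of both genes cannot be told apart.

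Promoter sequences of the 2 called genes are shown because the baits of the interaction data hold them. They run from 250 bases before to 50 after a RefSeq start (GRCh38.p14 table), are written 5′ to 3′ on the gene's strand, and had an exact match in GRCh37 at chr2:217560223-217560522 (IGFBP5) and chr7:45960822-45961121 (IGFBP3). Capitals mark GGGCGG or its complement, the GC box.
IGFBP5: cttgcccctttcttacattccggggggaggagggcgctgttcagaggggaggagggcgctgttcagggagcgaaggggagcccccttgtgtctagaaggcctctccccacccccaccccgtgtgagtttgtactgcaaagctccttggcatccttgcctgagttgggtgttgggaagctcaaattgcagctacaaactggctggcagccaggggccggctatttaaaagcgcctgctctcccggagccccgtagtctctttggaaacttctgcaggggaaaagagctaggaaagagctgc
IGFBP3: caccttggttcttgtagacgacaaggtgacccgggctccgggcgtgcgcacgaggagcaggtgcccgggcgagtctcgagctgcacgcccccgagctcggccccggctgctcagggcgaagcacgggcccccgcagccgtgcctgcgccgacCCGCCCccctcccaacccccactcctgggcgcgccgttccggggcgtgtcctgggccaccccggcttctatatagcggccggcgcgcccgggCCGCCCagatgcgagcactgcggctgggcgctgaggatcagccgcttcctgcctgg
The IGFBP3 window held 2 GC boxes, 2 matches to the E box CANNTG, 36 CG dinucleotides and no TATAAA. The IGFBP5 window held 9 CG dinucleotides and no match to the GC box, to TATAAA or to CANNTG on either strand. The RefSeq start of IGFBP3 lay inside the gene, at an offset of −602 bases from the gene start used for its bait. Of 35116 promoters of the same length, 45.0% held a GC box, 11.5% TATAAA and 68.7% CANNTG, and the median was 14 CG dinucleotides. These matches describe letters in the windows only.

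IGFBP3 (ENSG00000146674, chr7:45951850-45961473, minus strand), the main IGF carrier in blood, had 169 and 137 counts in ESCs and 369 and 1021 in NECs. Both NEC libraries were above both ESC libraries, but the NEC libraries differed widely from each other, giving 7.25 ± 2.41 CPM in ESCs and 29.3 ± 17.1 in NECs. The log2 ratio was 2.03 with SE 0.44 (adjusted p = 0.00709, edgeR). Without NEC replicate 2 it was 1.26, under the fold threshold, and the gene was not called. NEC replicate 2, in which IGFBP3 was higher, also had the higher pluripotency, neuroectoderm, and endoderm and mesendoderm sums of the NEC libraries. Its neural crest and mesenchyme sums were the lower ones. The part of these differences in the result was not tested.

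IGFBP2 (ENSG00000115457, chr2:217497551-217529159, plus strand), a binding protein abundant in the developing nervous system, had 9026 and 5311 counts in ESCs and 12374 and 12635 in NECs. The NEC libraries were the higher ones, but ESC replicate 1 lay nearer to them than to ESC replicate 2 (347 ± 186 CPM over ESCs, 546 ± 47.3 over NECs). The log2 ratio of 0.66 with SE 0.34 (adjusted p = 0.132, edgeR) did not pass the test. It was 1.32 (adjusted p = 0.000623, edgeR) without ESC replicate 1 and 0.18 (adjusted p = 0.451, edgeR) without ESC replicate 2, so 1 library decided its size.

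IGFBP4 (ENSG00000141753, chr17:38599702-38613983, plus strand), an inhibitory binding protein that PAPPA cuts, had 1379 and 1834 counts in ESCs and 1306 and 1445 in NECs. In CPM the groups lay close together without overlapping, at 73.6 ± 0.80 in ESCs and 59.8 ± 1.80 in NECs. Its log2 ratio was −0.30 with SE 0.09 (adjusted p = 0.0218, edgeR). IGFBP6 (ENSG00000167779, chr12:53491220-53496129, plus strand), which prefers IGF2 over IGF1, was the least abundant member per kb in NECs, with 97 and 148 counts in ESCs and 43 and 71 in NECs. It was lower in both NEC libraries (5.56 ± 0.60 against 2.45 ± 0.61 CPM), with a log2 ratio of −1.18 with SE 0.27 (adjusted p = 0.00907, edgeR). Neither difference reached the fold threshold.

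IGF1R (ENSG00000140443, chr15:99192200-99507759, plus strand), the signalling receptor, had 4180 and 4985 counts in ESCs and 2530 and 3750 in NECs. Its level was 212 ± 14.0 CPM in ESCs and 135 ± 23.8 in NECs, and its log2 ratio was −0.65 with SE 0.13 (adjusted p = 0.00634, edgeR), again under the fold threshold. IGF2R (ENSG00000197081, chr6:160390131-160534539, plus strand), the clearance receptor that also binds mannose 6-phosphate, had 4932 and 6357 counts in ESCs and 4311 and 6329 in NECs. Its levels of 259 ± 2.94 and 229 ± 38.7 CPM gave a log2 ratio of −0.18 with SE 0.13 (adjusted p = 0.267, edgeR), within the spread of the NEC libraries.

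IGF2BP1 (ENSG00000159217, chr17:47074774-47133012, plus strand), which binds IGF2, MYC and other transcripts, was among the 3 most abundant members per kb in both cell types. It had 10919 and 14691 counts in ESCs and 11272 and 17138 in NECs, at 586 ± 11.2 and 611 ± 118 CPM. The NEC libraries lay on either side of the ESC libraries, and the log2 ratio of 0.06 with SE 0.15 (adjusted p = 0.746, edgeR) turned to −0.16 without NEC replicate 2. IGF2BP2 (ENSG00000073792, chr3:185361527-185542844, minus strand) had 3227 and 4042 counts in ESCs and 5945 and 5711 in NECs, with a log2 ratio of 0.61 with SE 0.11 (adjusted p = 0.00398, edgeR). IGF2BP3 (ENSG00000136231, chr7:23349828-23510086, minus strand) had 3287 and 4119 counts in ESCs and 5381 and 5949 in NECs, with a log2 ratio of 0.53 with SE 0.09 (adjusted p = 0.00233, edgeR). Both were higher in each NEC library than in each ESC library, IGF2BP2 at 167 ± 5.28 against 255 ± 33.0 CPM and IGF2BP3 at 170 ± 5.32 against 246 ± 7.55, and neither was past the fold threshold. The end of IGF2BP3 overlaps C7orf30 on the opposite strand (1700, 2210, 1724 and 1972 counts), so reads of that stretch cannot be assigned. The opposite-strand genes within IGF2BP1, IGF2BP2 and IGF1R had at most 77 counts in any library.

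Levels of different genes were compared as CPM per kb of annotated exons, in which all isoforms are joined. In ESCs the order was IGFBP2 (73.1 ± 39.3), IGF2BP1 (60.9 ± 1.16), IGFBP4 (33.4 ± 0.36), IGF2BP2 (31.4 ± 0.99), IGF2BP3 (19.96 ± 0.62), IGF1R (15.2 ± 1.00), IGF2R (11.5 ± 0.13), IGFBP6 (4.13 ± 0.45), IGFBP5 (2.02 ± 0.44) and IGFBP3 (1.59 ± 0.53). The libraries of IGFBP2 and IGF2BP1 overlapped in this order, as did those of IGFBP5 and IGFBP3. In NECs the order was IGFBP2 (115 ± 9.98), IGFBP5 (112 ± 16.0), IGF2BP1 (63.4 ± 12.3), IGF2BP2 (47.8 ± 6.20), IGF2BP3 (28.9 ± 0.89), IGFBP4 (27.1 ± 0.82), IGF2R (10.1 ± 1.71), IGF1R (9.70 ± 1.70), IGFBP3 (6.42 ± 3.73) and IGFBP6 (1.82 ± 0.45). IGFBP5 moved from rank 9 to rank 2 and did not differ from IGFBP2 beyond the spread, and the same held for IGF2R with IGF1R and for IGF1R with IGFBP3. By summed CPM, the 5 binding proteins went from 576 and 316 in the ESC libraries to 1311 and 1413 in the NEC libraries. The 2 receptors went from 483 and 459 to 320 and 409, and the 3 IGF2BPs from 924 and 924 to 1057 and 1167.

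The 3 tested genes whose log2 CPM deviated most like IGFBP5 over the 4 libraries, by Euclidean distance, were NBPF20 (distance 0.34), ZBTB16 (0.39) and CCDC48 (0.40). ZBTB16 had 0, 3, 713 and 693 counts and CCDC48 had 1, 5, 860 and 852. NBPF20 had 9, 23, 1431 and 1460 counts and belongs to a family of near-identical copies, so its count is uncertain. With 4 libraries this likeness mostly restates a large rise in NECs.

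Other genes of the IGF pathway were taken from a list of 67, of which 63 were tested. Of these, 7 were called higher and 8 lower, near the 11.4% and 9.68% of all tested genes, and their median log2 ratio was −0.11. Among the ligands, IGF2 rose from 14 and 21 counts in ESCs to 1196 and 779 in NECs (log2 ratio 5.76 with SE 0.37, adjusted p = 7.7e-05, edgeR). IGF1 had 1, 7, 3 and 1 counts and was not tested, and INS had 0 counts in every library, which allows up to 3 counts per library. Counting error is all that this limit covers. The insulin receptor INSR, which can pair with IGF1R, had 607 and 776 counts in ESCs and 508 and 604 in NECs, and its log2 ratio of −0.40 with SE 0.10 (adjusted p = 0.0140, edgeR) was under the fold threshold. The related receptor INSRR had 1 count in each ESC library and 16 and 18 in NECs, a ratio of 16.1 per library size with an exact 95% counting interval of 4.13 to 138.

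Of 4 proteases that cut binding proteins, PAPPA and ADAM12 were called higher, and both inhibitors on the list were called lower. PAPPA, which cuts IGFBP4 and IGFBP5, rose from 17 and 23 counts to 642 and 1044 (log2 ratio 5.29 with SE 0.25, adjusted p = 2.9e-05, edgeR). ADAM12, a metalloprotease that cuts IGFBP3 and IGFBP5, rose by 2.89 on the log2 scale (29, 20, 190 and 203 counts). STC1 and STC2, secreted inhibitors of PAPPA, fell by 2.88 (2118, 1150, 182 and 319 counts) and 1.96 (2001, 931, 403 and 442 counts) on the log2 scale, although the ESC libraries of both differed widely. Without ESC replicate 1 the log2 ratio of STC2 was −1.06, and the gene was not called. PAPPA2 and HTRA1 had log2 ratios of −0.29 and 0.73 and were not called. Of the other binding proteins, IGFBPL1 rose by 1.79, IGFBP7 had a log2 ratio of −0.90 that was not called, and IGFBP1 (0, 1, 6 and 0 counts) and the complex partner IGFALS (4, 6, 4 and 3 counts) were not tested.

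Inside the cell, PIK3R3, a regulatory subunit of PI3K, rose by 2.41 on the log2 scale (418, 581, 2607 and 2992 counts) and was the one called gene among 16 PI3K, AKT and MTOR genes. None of 9 RAS and MAP kinase genes was called. At any fold, 8 of them were past an adjusted p of 0.05, 4 in each direction, where 61.1% of all tested genes passed. At that threshold 4 of the PI3K, AKT and MTOR genes were higher, 1 was lower and 11 did not pass. The forkhead factors FOXO1 and FOXO4, which AKT keeps out of the nucleus, fell by 2.06 and 1.53. FOXO4 was near the fold threshold, at −1.43 and not called without ESC replicate 2 and at −1.46 and not called with library size scaling. GRB14, an adaptor that restrains insulin receptor signalling, fell by 2.41, and SOCS2, a feedback inhibitor, fell by 2.27. Among known IGF2BP target RNAs and the let-7 axis, MYC fell by 2.69 (1779, 2145, 200 and 456 counts) and CD44 by 3.07, while H19, the imprinted noncoding neighbour of IGF2, rose by 2.77 (119, 167, 1358 and 647 counts). LIN28A, LIN28B, HMGA1, HMGA2 and ACTB were not called. Of the NEC libraries, replicate 1 had the higher counts of both IGF2 and H19.

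**Figure D2:**
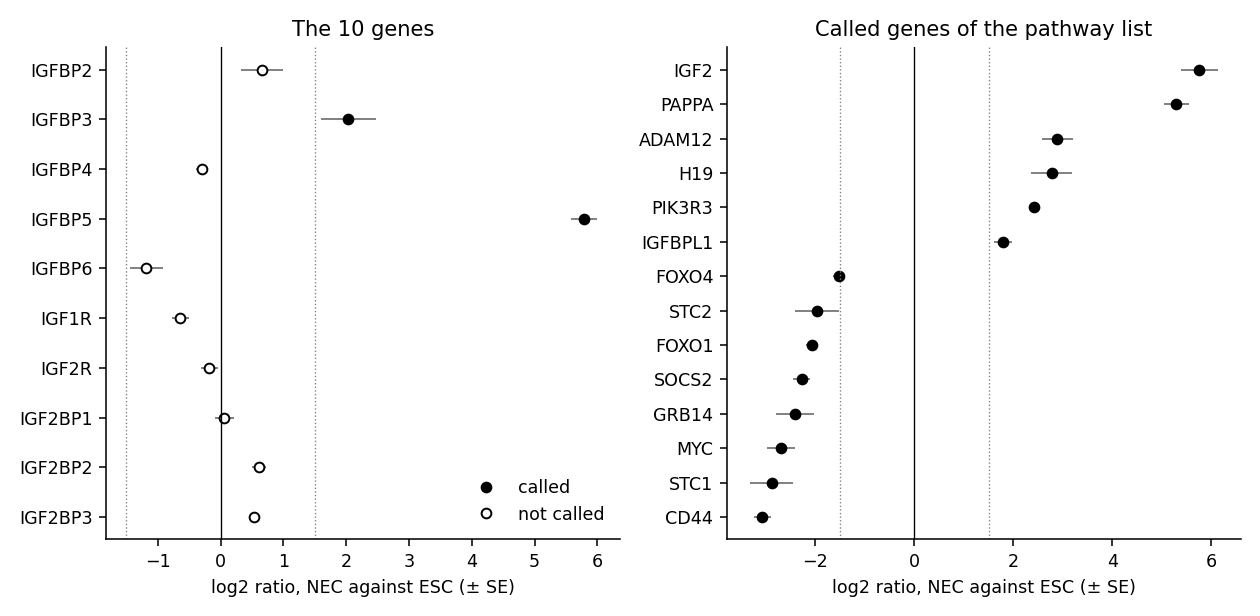
Log2 ratio of NECs against ESCs with its SE, for the 10 genes (left) and for the called genes of the pathway list except INSRR (right), with dotted lines at the fold threshold of 1.5 in either direction. IGFBP5, IGF2 and PAPPA lie above 5, and 8 of the 10 genes lie between the dotted lines.

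For promoter contacts, the authors' lists give pairs of HindIII restriction fragments whose CHiCAGO score, a weighted negative log p-value for more contact than distance predicts, was at least 12. The fragment called with a promoter bait is its promoter-interacting region (PIR). Each replicate has its own list and the reads of both replicates of a cell type gave a merged list. No read number accompanies a score, so the depth behind a contact is unknown. With 2 replicates against 2, a permutation test cannot give a two-sided p below 0.333, so no test was made. The highest scores named below are those of the merged lists.

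The bait of IGFBP5 had 13 and 24 PIRs in the replicates of ESCs against 36 and 18 in those of NECs, and the cell types overlapped. That of IGF1R had 22 and 18 in ESCs and 21 and 17 in NECs. In the merged lists these were the members with the most PIRs, 22 in ESCs and 34 in NECs for IGFBP5 and 32 and 31 for IGF1R, where the median of 19700 baits with a merged call was 3. The NEC replicates lay above both ESC replicates for IGFBP2 (2 and 6 against 7 and 12) and IGFBP3 (6 and 9 against 14 and 14). They lay below for IGF2BP1 (8 and 7 against 1 and 4) and IGF2BP2 (6 and 9 against 3 and 4). Over 21768 baits the share without overlap was 13.2% with NECs higher and 12.9% with NECs lower, so 2 of 10 members each way was close to this background. The other members overlapped, with 7, 12, 7 and 5 PIRs for IGFBP4, 3, 2, 2 and 1 for IGFBP6, 4, 5, 6 and 5 for IGF2R, and 3, 2, 7 and 1 for IGF2BP3.

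At a score of at least 15 the members without overlap were others in part. IGFBP2 (0 and 0 against 2 and 3), IGFBP3 (0 and 1 against 2 and 5), IGFBP5 (1 and 2 against 12 and 8) and IGF1R (0 and 2 against 6 and 5) had more PIRs in NECs, and IGF2BP1 and IGF2BP2 overlapped. The share over 13582 baits was 9.79% with NECs higher and 6.97% with NECs lower. Beside these numbers, the RNA of IGFBP3 and IGFBP5 rose, IGFBP3 with more PIRs in NECs at both scores and IGFBP5 with more at 15. IGF2BP2 had higher RNA and fewer PIRs in NECs at 12, and IGF1R lower RNA and more PIRs at 15. When adjoining PIRs were counted as 1 at a score of at least 12, both IGFBP3 and IGFBP5 overlapped. The relation of contacts to RNA was not tested.

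**Figure D3:**
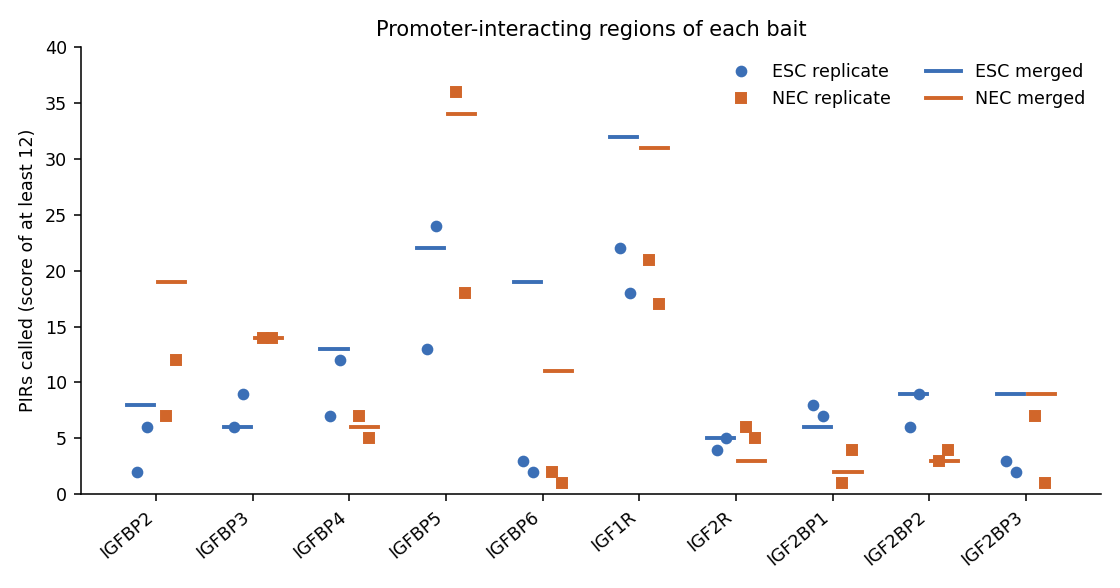
Number of PIRs called at each gene's bait in each replicate (circles for ESCs, squares for NECs) and in the merged lists (lines). IGFBP5 and IGF1R stand above the other genes, and the replicates separate by cell type for IGFBP2, IGFBP3, IGF2BP1 and IGF2BP2.

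Of 232 member interactions called in any replicate, 9 were retained in all 4 replicates (3.88%, against 2.85% of 274669 over all baits). In both NEC replicates and no ESC replicate there were 12 (5.17%, against 2.46%), and in both ESC replicates and no NEC replicate 9 (3.88%, against 2.56%). IGFBP5 held 5 of the 12 NEC-restricted interactions and 3 of the 9 retained ones. PIRs of one bait that adjoin each other are not independent of each other.

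IGFBP5 contacts lay almost all upstream, and most fell inside DIRC3, a long noncoding RNA gene (chr2:218148742-218621316). The number in DIRC3 was 9 of 13 and 17 of 24 in the replicates of ESCs against 33 of 36 and 15 of 18 in those of NECs. DIRC3 itself had 6, 8, 4 and 3 counts and was not tested. The highest NEC merged score was 30.35 at chr2:218576103-218580318, 1022 kb upstream, where the ESC merged score was 16.09 and only ESC replicate 1 had no call. The highest ESC merged score was 16.40 at chr2:218618653-218619331 (NEC merged 14.82). A PIR called in NECs only was chr2:218375366-218376342, at 19.89 and 17.01 in the NEC replicates. The contact retained nearest the gene was chr2:218027482-218030973, 472.7 kb upstream and outside DIRC3, which scored 12.58 and 12.01 in ESCs and 16.62 and 18.63 in NECs. The bait at the start of DIRC3 (chr2:218620325-218630135) scored 15.35 and 15.20 in the NEC replicates as a PIR of IGFBP5 and was called in neither ESC replicate. Read from the DIRC3 bait, the same pair scored 16.21 in ESC replicate 1, 29.49 in NEC replicate 1 and 22.13 in NEC replicate 2, so the ESC contact depended on which end was read. The IGFBP5 bait also holds the start of AC007563.5, and its contacts cannot be given to one of the genes.

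IGFBP2 and IGFBP5 lie next to each other on chromosome 2, on opposite strands and with their 3′ ends facing, and no list called a contact between their baits. They shared 6 PIRs in the NEC merged list and 1 in the ESC merged list. By replicate, they shared none in ESCs and 5 and 3 in NECs. IGFBP2 had 1 and 0 PIRs in DIRC3 by ESC replicate against 6 and 6 by NEC replicate. Both of its NEC-restricted interactions, chr2:218412373-218417525 and chr2:218587645-218596978, were there. Its highest merged scores were nearer, 15.48 at chr2:217431786-217434769 in ESCs and 17.22 at chr2:217384737-217391206 in NECs, both in RPL37A.

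IGFBP3 had 1 outstanding PIR, chr7:46391684-46396043, 434.1 kb upstream and in no gene of the count table. Its replicate scores were 12.04 and 21.14 in ESCs against 26.03 and 32.04 in NECs, so both NEC scores were the higher. The merged scores were 19.32 and 41.43, the highest of any member in NECs. A second cluster farther upstream, around 1169 kb from the bait, held the NEC-restricted PIR chr7:47125642-47131806 (13.26 and 13.10).

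**Figure D4:**
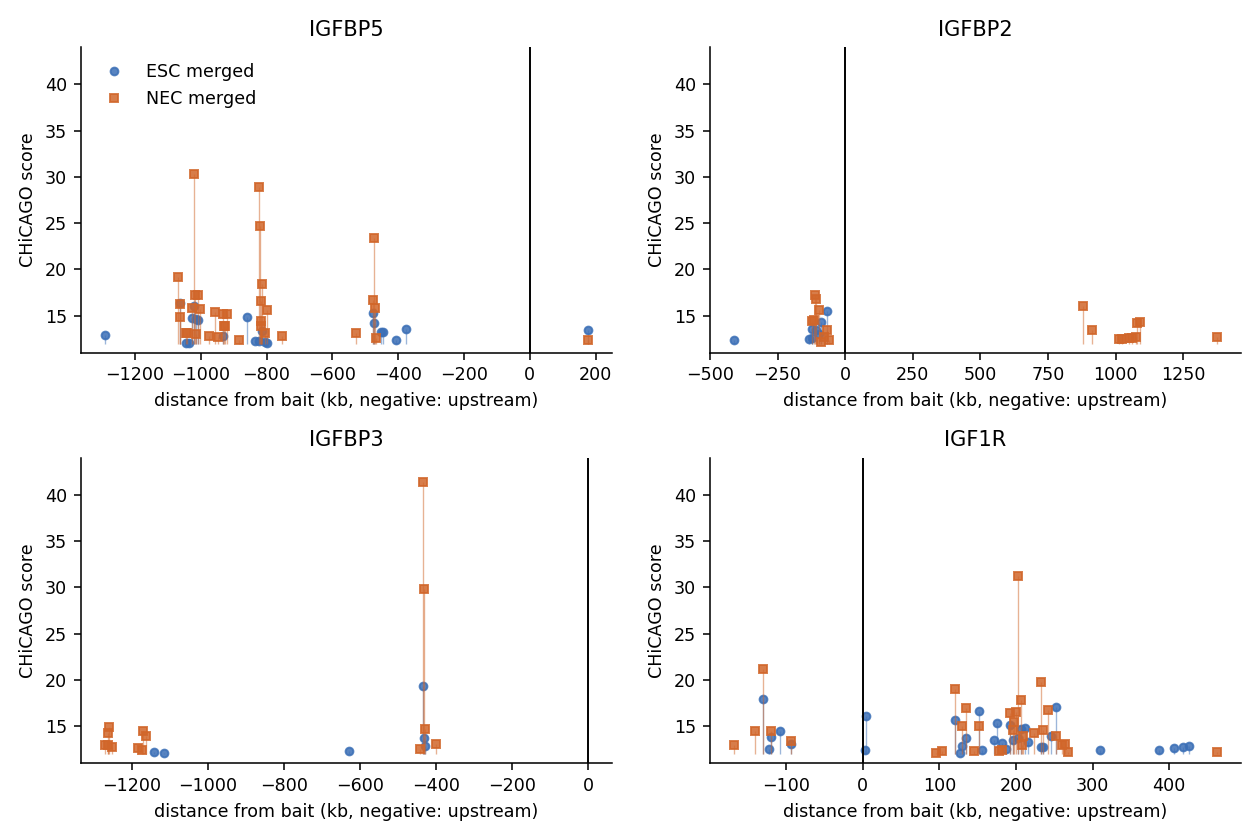
CHiCAGO score in the merged lists against the distance of each PIR from the bait in kb, negative upstream of the gene, for IGFBP5, IGFBP2, IGFBP3 and IGF1R. IGFBP5 and IGFBP2 reach the same distant region from opposite sides of their starts, IGFBP3 has a single peak at 434.1 kb, and IGF1R contacts lie mostly downstream of its start.

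IGF1R contacts were mostly along its own long gene or past its end, with 27 of 32 PIRs downstream of the bait in ESCs and 26 of 31 in NECs. The highest NEC score, 31.26, was at chr15:99393401-99397995 in an intron, where the ESC merged score was 13.74 and the replicates had none and 13.91 in ESCs and 18.25 and 29.80 in NECs. The highest ESC score, 17.90, was at the retained PIR chr15:99057507-99069410 upstream, with 21.23 in NECs. By the replicate lists 3 intronic PIRs were restricted to NECs, one of them with an ESC merged score of 12.80, and 3 PIRs in the gene were restricted to ESCs. The intronic PIR chr15:99397996-99400390 was retained (14.70 in ESCs and 17.88 in NECs). IGF2R contacts included baits at TCP1, which encodes a chaperonin subunit, and at MRPL18 and SOD2, and both cell types had their highest score at the retained PIR chr6:160205027-160208596 in TCP1 (14.95 in ESCs and 16.66 in NECs). All 5 ESC and all 3 NEC merged PIRs of IGF2R were themselves baits. Read from other baits, a contact with the IGF2R bait was called only from that of WTAP, at 12.4 in NEC replicate 1.

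IGFBP4 had its highest score in both cell types at the retained PIR chr17:38688681-38695675, 93.83 kb downstream in no gene of the count table (21.84 in ESCs and 17.15 in NECs in the merged lists). In ESC replicate 2 alone its highest score, 32.22, was with chr6:121996771-122001363 on another chromosome (ESC merged 15.56, no call in the other replicates). IGFBP6 lies in a gene-dense stretch of chromosome 12 and had 19 merged PIRs in ESCs and 11 in NECs but at most 3 in any replicate. Its highest scores were 19.26 at chr12:53580849-53584669 in ZNF740 in ESCs, with no NEC call, and 21.10 at chr12:53449578-53461671 in NECs, with 15.90 in ESCs.

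IGF2BP1 shares its bait with GIP, which encodes a gut hormone and had 4, 11, 1 and 4 counts, and with RP11-501C14.5. The bait contacted the SNF8 bait, chr17:47005121-47031529, in all 4 replicates (18.63, 22.14, 18.02 and 17.93), and this was the one retained member interaction at a score of at least 15. In both ESC replicates only, it contacted the baits of HOXB9 (13.10 and 12.92) and TTLL6 (15.31 and 12.62) and a bait at PHB. None of these contacts, that with SNF8 included, was called in any list when read from the other bait. HOXB9 had 0 and 0 counts in ESCs and 12 and 6 in NECs. At IGF2BP2, 3 interactions were restricted to ESCs, of which chr3:185451065-185453431 in its own intron had the highest merged score (16.83). In NECs its bait contacted that of TRA2B, chr3:185653522-185661160, at 15.03 and 20.23 and with no call in ESCs (NEC merged 23.43). IGF2BP3 had its highest scores at chr7:23502672-23505097 in its own intron in ESCs (18.64, NEC 16.66) and at chr7:23567682-23569211 in TRA2A in NECs (18.51, no ESC call), and neither was called in all replicates.

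The core letters of the CTCF motif, searched as CCA, AG and GGC with 2 free bases in each gap on both strands, were looked for in every PIR because CTCF sites often anchor long contacts. They were in 54 of 269 different fragments contacted by the members in any list (20.1%), against 14.9% of 136671 listed fragments that are not baits and 16.5% of all 158504. Of the 9 retained PIRs, 4 held a match. The fragments differ in length, and a match shows neither binding nor a cause. The PIR with the highest NEC merged score held no match at IGFBP2, IGFBP3, IGFBP5, IGF1R, IGF2R, IGF2BP2 and IGF2BP3. That of IGFBP4, IGFBP6 and IGF2BP1 did hold a match. Matches in 4 PIRs, picked from those named above because they held a match, are printed from GRCh37. They are written 5′ to 3′ on the strand of the motif, with the match in capitals and 20 bases on either side.
IGFBP4 retained PIR, chr17:38689719-38689770, minus strand: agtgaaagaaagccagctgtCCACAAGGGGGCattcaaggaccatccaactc
IGFBP5 NEC-restricted PIR at the DIRC3 start, chr2:218621423-218621474, minus strand: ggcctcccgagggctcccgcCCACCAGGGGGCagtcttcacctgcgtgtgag
IGF1R retained PIR, chr15:99062465-99062516, plus strand: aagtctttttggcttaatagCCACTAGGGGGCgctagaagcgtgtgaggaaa
IGF2BP1 retained PIR, chr17:47007889-47007940, plus strand: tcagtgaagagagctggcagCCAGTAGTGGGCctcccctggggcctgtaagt
The IGFBP5 PIR at the DIRC3 start held a second match, at chr2:218628279-218628330, and the other retained PIR with a match was chr2:218580319-218587644 of IGFBP5.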

How the data were processed

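The 4 RNA-seq libraries and the PCHi-C lists (4 replicate, 2 merged) were analysed. For RNA-seq the authors trimmed reads, aligned them to GRCh37 (the submitters' processing notes name Bowtie 1.0.0 and TopHat2 2.0.8b) and deposited whole-number counts per Ensembl gene, without normalization or regard to strand. For PCHi-C the authors mapped reads with HiCUP and deposited CHiCAGO scores of at least 12. ESC replicate 2 of PCHi-C combined technical replicates. No columns of other samples were present.

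Counts were tested in edgeR 4.0.16 (R 4.3.3): filterByExpr with a minimum count of 10 kept 17564 of 31017 genes, TMM scaling, quasi-likelihood test, Benjamini-Hochberg adjustment over all tested genes. DESeq2 1.42.0, other scalings, no filter and leaving out libraries were alternatives. Python 3.11.15 read the lists. All 158504 fragments had a HindIII site at an end in GRCh37. Exon lengths came from GENCODE on GRCh37, and 9 of 10 members matched the RefSeq promoter table. IGF2BP1 did not match it. On simulated counts the test was checked to recover planted changes.

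The members and lists were chosen with earlier results of these data known. Named were every member, the ligands, INSR, IGFBP1 and IGFBP7, called pathway genes, the 3 genes most like the called member with the largest rise (log2 of CPM plus 0.5; no member was called lower), and the highest PIR per bait and cell type. Other gene names were chosen after their values were seen. P-values set the difference between the cell types against the spread between 2 biological replicates of each, estimated with information shared across genes. They do not separate cell type from lane.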

Additional observations from a re-analysis of the deposited data

How the results depend on the processing

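The direction of each member's log2 ratio and whether it was called held in 88 of 90 combinations of member and alternative. Without NEC replicate 2 IGFBP3 was not called (1.26, adjusted p = 0.00733 in edgeR) and IGF2BP1 turned to −0.16 (range −0.16 to 0.25 over the 4 omissions). Leaving out 1 library gave 1 to 2 members called, 14 to 15 pathway genes and 3294 to 4105 genes overall. With adjusted p alone, 7 members, 43 pathway genes and 10738 genes passed. The deviations of ESC replicate 1 and NEC replicate 1 had a correlation of 0.07 over genes. This value cannot decide whether the replicate numbers pair the libraries. With the replicate block 2 members, 15 pathway genes and 3698 genes were called, with IGFBP2 at an adjusted p of 0.0189 in edgeR. An adjusted p crossed 0.05 in at least 1 alternative for IGFBP2 (0.000623 to 0.451), IGFBP4 (0.0172 to 0.122), IGF2R (0.0101 to 0.931) and IGF2BP1 (0.0456 to 0.953). A score of at least 15 left 1 retained member interaction, 7 restricted to NECs and 0 restricted to ESCs. Restricted to NECs then means only that both ESC replicates were under 15. The IGFBP5 PIR chr2:218376343-218385699, at 18.88 and 28.2 in NECs, had 12.43 in ESC replicate 2. Adjoining PIRs counted as 1 gave 14 retained and 5 restricted to NECs. Shares over all baits were not computed for these counts. Members without overlap of PIR numbers numbered 3 to 4 in all alternatives, though not always the same members. With adjoining PIRs counted as 1, IGFBP2 (2 and 6 against 6 and 8) and IGFBP3 (6 and 7 against 12 and 6) overlapped. IGFBP5 overlapped as well (13 and 18 against 15 and 10), with 17 merged PIRs in each cell type. IGF1R then had fewer PIRs in NECs (19 and 16 against 14 and 11), the reverse of its difference at 15. With PIRs that are baits left out, IGF2BP1 overlapped (1 and 0 against 0 and 1). With every bait at an annotated transcript start, IGF2BP1 had 13 and 10 PIRs in ESCs against 10 and 9 in NECs, which overlapped. The PIR numbers moved by more than the replicate SD in 62 of 140 alternatives. The depth of the contact lists is unknown, and 2 libraries per cell type limit every p.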

Other observations

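Contacts read from other baits onto the members' promoters gave further values. The bait of C7orf30 (chr7:23337129-23346150) reached the IGF2BP3 bait in all 4 replicates, at 18.21 and 15.25 in ESCs and 38.22 and 26.50 in NECs, with merged scores of 17.93 and 40.60. Read from the IGF2BP3 bait, the merged score was 13.34 in NECs with no ESC call. C7orf30 overlaps the end of IGF2BP3 on the opposite strand and had 1700, 2210, 1724 and 1972 counts, a log2 ratio of −0.16 with SE 0.08 (adjusted p = 0.131, edgeR). The bait of GPNMB reached the IGF2BP3 bait in all 4 replicates, at 12.11 to 13.67.

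The bait of SPRYD3 reached the IGFBP6 bait at 27.27 and 22.35 in the ESC and NEC merged lists. The bait at TENC1, which encodes a tensin, reached it at 28.18 and 26.73. These were above every score read from the IGFBP6 bait itself, of which the highest was 21.10.

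PIR numbers at promoters of called pathway genes differed between lists. PAPPA had 10 and 11 PIRs in the ESC replicates, 13 and 11 in the NEC replicates, and 24 and 18 in the merged lists of ESCs and NECs. The merged numbers were 5 and 4 for IGF2, 7 and 6 for H19 and 12 and 13 for ADAM12. They were 33 and 34 for INSRR and 29 and 13 for PIK3R3 (replicates 20 and 8 against 6 and 4). For IGFBPL1 they were 1 and 5, but its replicates overlapped (5 and 3 in ESCs against 3 and 10 in NECs). The RNA of all these genes rose. The gene starts used for IGF2 (chr11:2182439) and INS (chr11:2182571) had the same PIR numbers in every list. The contacts counted for IGF2 thus cannot be given to one of the genes. Only this start was used for IGF2, so contacts of any other bait within the gene were not counted. MYC, whose RNA fell, had 6 and 2 against 14 and 24 PIRs in the replicates and 3 against 11 in the merged lists. The other pathway genes called lower were mixed. CD44 had 2 and 2 against 1 and 0 in the replicates, and those of STC1, STC2, GRB14, FOXO1, FOXO4 and SOCS2 overlapped. Their merged numbers in ESCs and NECs were 4 and 9 for STC1, 0 and 1 for STC2 and 0 and 2 for GRB14. They were 8 and 14 for FOXO1, 1 and 1 for FOXO4 and for CD44, and 13 and 10 for SOCS2.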
